A study of Mus musculus with 32 samples.

Results

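Livers of 8 female C57BL/6J mice that were 52 weeks old when feeding began are described here, out of 32 mice that fell into 8 groups by diet, sex and starting age (7 or 52 weeks). The members were taken by the sample labels: 4 mice on a high-fat diet (HFD, libraries F6.1, F6.4, F8.1 and F8.2) and 4 on a matched low-fat diet (LFD, libraries F7.2, F7.4, F9.1 and F9.2). By the study's methods the mice ate freely for 10 weeks, the HFD with 60 kcal% fat and the LFD with 10 kcal% fat, and the mice carried no engineered allele. The HFD also held more sucrose and cholesterol and the LFD far more carbohydrate, so each difference below is one between whole diets and not between fat contents alone. PolyA RNA of whole liver tissue was sequenced, and levels are CPM, the reads of a gene scaled to a fixed library total after TMM normalization.

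The liver of a fasting or fat-fed animal burns fatty acids in mitochondria and peroxisomes and exports ketone bodies, whereas a carbohydrate-fed liver turns glucose into fatty acids (de novo lipogenesis) under the transcription factors SREBP1c, ChREBP and LXR. Fatty acids themselves activate the nuclear receptor PPAR alpha, which is known for driving the oxidation genes. Metabolic dysfunction-associated steatotic liver disease begins where fat is stored in hepatocytes faster than it is burned or exported.

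The 8 libraries held 32206140 to 51469287 counts, and replicates differed far beyond counting noise (chi-square per gene of 27.2 to 91.1 within a group, near 1 for repeats of one library), so no pair was a duplicate. A gene was called where edgeR's quasi-likelihood F test, fitted to all 16 female libraries, gave a Benjamini-Hochberg adjusted p under 0.05. The labels do not say that the mice came from separate cages, and they do not explain the digit before the point in a library's name. F6.4 stood apart from the other HFD livers. On dimension 2 of a plot of leading log2 fold changes it lay at -0.82, next to the LFD libraries (-0.73 to -0.21), while F6.1, F8.1 and F8.2 lay at 0.067, -0.028 and 0.64. The defining markers of liver tissue were present at high levels in all 8 libraries (Alb, albumin, 62670 to 92950 CPM, and Ttr, transthyretin, 2305 to 3950.1 CPM). The adipocyte genes Adipoq and Plin1, the pancreatic genes Cpa1 and Pnlip and the muscle genes Acta1 and Ckm were not among the genes tested. Other markers of these tissues were tested. They were 3 of 12 adipocyte markers (1 called higher, Lipe), 4 of 12 pancreas and gut markers (1 called higher, Fabp2) and 2 of 8 muscle markers (0 called). The summed level of the 3 adipocyte markers was 40.5 to 80.2 CPM on the HFD and 24.1 to 38.8 CPM on the LFD.

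On the HFD, 733 genes were higher and 511 lower, of 15733 tested (4.66% and 3.25%, and 7.91% in all). In 1517 genes all HFD livers lay above all LFD livers and in 1183 all lay below (9.64% and 7.52% of genes tested), and 1131 of the 1244 called genes were among them. Without F6.4 the test called 1018 higher and 1130 lower (6.47% and 7.19%), and 1160 of the 1244 genes were called again. Among the genes named in the text, leaving out F6.4 lost 8 calls (Abhd5, Angptl8, Bscl2, Cyp46a1, Lcn2, Plekhd1, Slc34a2 and Steap4) and added 15 (Adgre1, Bckdha, Cd36, Clec4f, Clec4g, Cyp3a11, Cyp4a14, Hmox1, Irf7, Oit3, Saa2, Stab2, Timd4, Tlr4 and Vsig4), so that a gene given below as not called may be called without that liver. Leaving out another library gave fewer calls, from 467 (without F8.1) to 727 (without F7.2), and 369 genes were called in all 8 such fits. Counts of called members of a gene list stand below beside these shares of all genes, 4.66% called higher and 3.25% called lower. List counts without F6.4 stand beside 6.47% and 7.19% instead. F6.4 was chosen for this after its values were seen, so those counts are no independent evidence. Other fits have their own totals over all genes. Voom with quality weights called 1949 higher and 2152 lower, DESeq2 1171 and 819, and the fit of only these 8 libraries 940 and 458. The median log2 fold change over all genes was -0.020.

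The call with the smallest p was Ppm1k, the mitochondrial phosphatase that switches on the branched-chain ketoacid dehydrogenase (chromosome 6 of mm10, 57506502 to 57535468, - strand). It stood at 127, 106, 131 and 139 CPM in F6.1, F6.4, F8.1 and F8.2 and at 24.6, 28.3, 32.4 and 35.4 CPM in F7.2, F7.4, F9.1 and F9.2, and all values below follow this order of libraries. The lowest HFD liver thus lay far above the highest LFD liver, at a 4.17-fold difference (log2 fold change 2.06, SE 0.18, edgeR adjusted p = 6.0e-05). Among called genes that averaged 1 CPM or more and whose groups did not overlap, the largest rise was that of Sema5b, a semaphorin guidance protein (chromosome 16 of mm10, 35541145 to 35664732, + strand), with 7.58, 4.87, 11.6 and 12.5 CPM on the HFD and 0.644, 0.595, 0.533 and 1.1 CPM on the LFD (log2 fold change 3.67, SE 0.53, edgeR adjusted p = 0.0021). Slc13a5, which imports citrate, was among the next largest with 1.68, 4.67, 2.11 and 2.75 CPM against 0.322, 0.378, 0.584 and 0.982 CPM (log2 fold change 2.31, SE 0.49, edgeR adjusted p = 0.013). F6.4 was the highest library of that gene, unlike Sema5b, where it was the lowest HFD liver.

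Others of the 12 largest rises were the antisense transcript Hectd2os (log2 fold change 2.31), the orphan receptor gene Gpr12 (2.1), Depp1, a target of FOXO factors (1.85), Tmem28 (1.85) and Fam25c (1.73). The strand setting of the counting is not given in the sources used here, so reads of Hectd2os and of a gene on the other strand may not be told apart. Cyp2b13, Lcn2, Orm2 and Saa1 complete these 12 and are described below.

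The deepest fall among such genes was that of Plekhd1, a coiled-coil protein with a pleckstrin homology domain (chromosome 12 of mm10, 80692591 to 80724214, + strand). It stood at 0.0774, 0.249, 0.174 and 0.266 CPM on the HFD and 1.05, 2.16, 10.9 and 4.91 CPM on the LFD (log2 fold change -4.61, SE 1.31, edgeR adjusted p = 0.043), and the LFD livers themselves differed widely. Lepr, the leptin receptor (chromosome 4 of mm10, 101717404 to 101815352, + strand), had 2.3, 11.1, 6.02 and 7.73 CPM on the HFD and 50.3, 70.8, 50.7 and 39.8 CPM on the LFD (log2 fold change -2.96, SE 0.38, edgeR adjusted p = 0.001). Each HFD liver lay below each LFD liver by a wide gap. Akr1b7, an aldo-keto reductase, fell by 2.68 on the log2 scale, Adam11, a membrane-anchored protein of the metalloprotease family, by 2.29, the phosphate transporter Slc34a2 by 2.2, and the cholesterol 24-hydroxylase Cyp46a1 by 2.02. The remaining genes of these 12, Pnpla3, Fabp5, Elovl6, Slc2a4, G6pdx and Fasn, belong to lipid and sugar metabolism and follow below. Of the 28 calls named so far, 11 held whichever library was left out, and the fewest, 11, held without F6.1, F8.1 or F9.1.

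**Figure D1:**
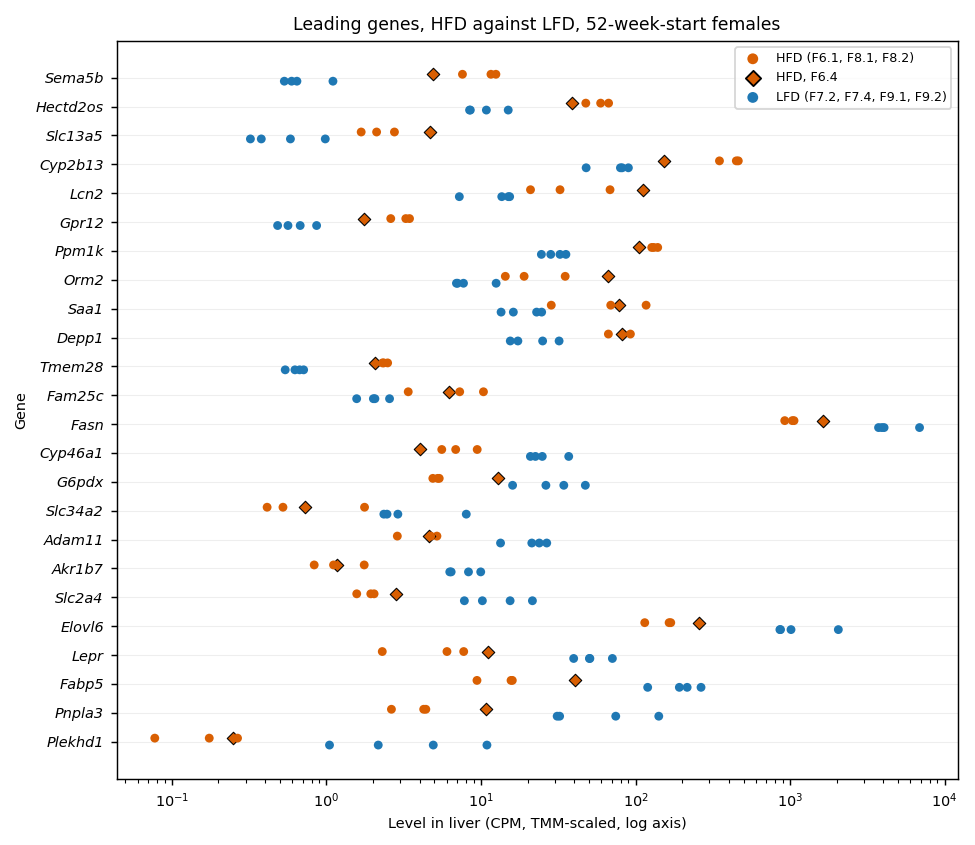
Level in CPM (log axis) of the 12 called genes with the largest and the 12 with the smallest log2 fold change among those whose groups did not overlap, 1 point per liver and library (orange, HFD, with F6.4 as a diamond, and blue, LFD). In Ppm1k the groups lie far apart, with 106 to 139 CPM against 24.6 to 35.4 CPM, and in Fabp5 and Pnpla3 the diamond lies nearest to the LFD livers.

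Lipogenesis genes that were called were all lower on the HFD. Of 19 listed genes, 5 were called lower and 0 higher, against 3.25% of all genes called lower. In 11 all HFD livers lay below all LFD livers, against 7.52% of all genes. The list's median log2 fold change was -1.04. Scd1, the stearoyl-CoA desaturase that makes monounsaturated fatty acids, stood at 5997, 12323, 7738 and 3728 CPM on the HFD and 17837, 25903, 34505 and 35717 CPM on the LFD (log2 fold change -1.94, SE 0.44, edgeR adjusted p = 0.018). Fasn, fatty acid synthase (chromosome 11 of mm10, 120805846 to 120824547, - strand), had 1035, 1628, 1061 and 924 CPM against 3740.4, 3927, 6889.5 and 4062 CPM (log2 fold change -2.0, SE 0.52, edgeR adjusted p = 0.029). In both genes F6.4 was the highest HFD liver and yet below the lowest LFD liver. The elongase Elovl6 had 165, 256, 169 and 115 CPM against 868, 859.9, 2054 and 1015 CPM (log2 fold change -2.77, SE 0.55, edgeR adjusted p = 0.0098). Acaca, acetyl-CoA carboxylase, which makes the malonyl-CoA that Fasn uses, had 173, 302, 211 and 173 CPM against 630.4, 781, 822 and 713 CPM (log2 fold change -1.78, SE 0.39, edgeR adjusted p = 0.015). Pnpla3, a lipid droplet lipase and SREBP1c target, had 4.26, 10.8, 4.39 and 2.63 CPM against 31.1, 32.3, 141 and 74.5 CPM, the deepest fall of the list (log2 fold change -3.67, SE 0.93, edgeR adjusted p = 0.028). F9.1 was the highest LFD liver for Pnpla3, Elovl6 and Fasn.

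Acly, ATP citrate lyase, did not pass the test although its groups did not overlap, with 584, 798, 482 and 325 CPM on the HFD and 1046, 1424, 1813 and 1449 CPM on the LFD (log2 fold change -1.39, SE 0.54, edgeR adjusted p = 0.12). Summed over the 19 genes, the level was 14237, 22246, 16223 and 10241 CPM on the HFD and 30352, 40021, 54548 and 50170 CPM on the LFD, so the highest HFD liver, F6.4, still lay below the lowest LFD liver. Counts of called members varied with the fit, from 2 to 5 lower with 1 library left out. A fit of only these 8 libraries called 10 lower and 1 higher, and voom with quality weights 12 and 2.

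Neighbouring sugar pathways showed single genes. G6pdx, glucose-6-phosphate dehydrogenase, the entry to the pentose phosphate pathway that supplies NADPH for lipogenesis, had 5.37, 12.8, 5.25 and 4.88 CPM on the HFD and 16, 26.3, 34.3 and 47.3 CPM on the LFD (log2 fold change -2.13, SE 0.54, edgeR adjusted p = 0.027). Rpia, ribose-5-phosphate isomerase of the same pathway, fell with it (5.96, 5.99, 4.53 and 4.13 against 8.47, 13.7, 21.5 and 13 CPM, log2 fold change -1.46, SE 0.30, edgeR adjusted p = 0.012). H6pd, the enzyme of the endoplasmic reticulum that carries out the G6pdx reaction there, rose (305, 415, 361 and 409.9 against 234, 265, 244 and 281 CPM, log2 fold change 0.54, SE 0.11, edgeR adjusted p = 0.011). Pgd (-0.61), Tkt (-0.27) and Taldo1 (0.30) of this pathway did not pass. In glycolysis and fructose use 0 of 18 genes were called higher and 1 lower, the isomerase gene Gpi1 (log2 fold change -0.71, SE 0.18, edgeR adjusted p = 0.028), while liver pyruvate kinase (Pklr, -0.98) did not pass. In gluconeogenesis Pcx, pyruvate carboxylase, rose from 370.1, 414, 388 and 377 CPM on the LFD to 552, 526, 606 and 621 CPM on the HFD (log2 fold change 0.57, SE 0.13, edgeR adjusted p = 0.019), and so did Crtc2, a coactivator of CREB (0.34, SE 0.071, edgeR adjusted p = 0.012). Pck1 and G6pc, which encode the enzymes at the control points of gluconeogenesis, had log2 fold changes of 0.89 and -1.74 and overlapping groups. Among the 11 calls named for these sugar and lipogenesis genes, 5 held in all 8 fits with 1 library left out (5 at the fewest, without F8.1 or F8.2).

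Promoters of the lipogenesis genes were searched for the letters of the sterol response element and of a single E-box. Both strands of the stretch from 250 bases before to 50 after an annotated start were read (RefSeq, GRCm38.p6). Elements of LXR and PPAR alpha were not searched. The table held a promoter for 16 of the 19 lipogenesis genes. The sterol response element TCACNCCAC was found in 1 of them (1.46% of the promoters of all genes tested) and the E-box CACGTG in 3 (11.3%). Neither was found for the 5 called genes, as far as the table held their promoters. Stretches around the matches are shown, with the motif in capitals, for Mlxipl, which encodes ChREBP itself, and for Hmgcs1 and Gclm, described below, to let the letters be read beside the values.
Mlxipl, sterol response element, chr5:135106745-135106774, + strand: atcagtggttTCACACCACgctcactggtt
Mlxipl, E-box, chr5:135089780-135089809, + strand: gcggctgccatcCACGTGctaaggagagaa
Hmgcs1, sterol response element, chr13:119690204-119690233, + strand: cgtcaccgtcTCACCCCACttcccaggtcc
Gclm, antioxidant response element (TGACNNNGC on the other strand), chr3:122245413-122245442, + strand: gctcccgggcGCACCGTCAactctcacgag
The Mlxipl matches lie before different annotated starts. Mlxipl was not called (log2 fold change -0.65, SE 0.25, edgeR adjusted p = 0.11). A match is a description of letters and not evidence of binding.

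Many genes of fatty acid oxidation were higher on the HFD. Of 20 listed genes of the mitochondrial pathway 14 were called higher and 0 lower, and of 21 of the peroxisomal pathway 10 and 0, against 4.66% of all genes called higher. The median log2 fold changes were 0.54 and 0.52. Cpt1a, the carnitine palmitoyltransferase that admits long-chain fatty acids to the mitochondrion, stood at 682, 644, 939 and 907 CPM on the HFD and 472, 474, 275 and 334 CPM on the LFD (log2 fold change 1.03, SE 0.19, edgeR adjusted p = 0.0078). Its partners at the inner membrane, Slc25a20 and Cpt2, had log2 fold changes of 0.63 and 0.58, both called. Acadm, the medium-chain acyl-CoA dehydrogenase of the first step, had 448, 292, 472 and 429 CPM against 253, 251, 236 and 221 CPM (log2 fold change 0.77, SE 0.15, edgeR adjusted p = 0.0084). Hadh, the dehydrogenase of the third step, had the smallest p of the list, with 448, 333, 461 and 433 CPM against 269, 259.7, 274 and 255 CPM (log2 fold change 0.66, SE 0.11, edgeR adjusted p = 0.005). Acaa2, the thiolase of the last step, had 637, 552, 668 and 749 CPM against 452, 494, 483 and 467 CPM (log2 fold change 0.46, SE 0.10, edgeR adjusted p = 0.018). In these genes no HFD liver fell within the LFD range, and F6.4 was the lowest HFD liver of each. Acads (0.56), Etfdh (0.59), which passes the electrons on, and Decr1 (0.61), needed for unsaturated fatty acids, were also called. Acsl1, the acyl-CoA synthetase, was not called (0.26, SE 0.21, edgeR adjusted p = 0.47), and Acot2, a mitochondrial thioesterase, had a log2 fold change of 0.56 (edgeR adjusted p = 0.24).

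In peroxisomes Hsd17b4, a multifunctional enzyme of the middle steps, had 544, 419, 566 and 554 CPM against 337, 330.2, 303 and 324 CPM (log2 fold change 0.69, SE 0.11, edgeR adjusted p = 0.0029), whereas Ehhadh, the other multifunctional enzyme, was not called (0.046, SE 0.16, edgeR adjusted p = 0.89). Scp2, the thiolase that also carries lipids, had 2036, 1386, 2148 and 1942 CPM against 1117, 1015, 1029 and 1095 CPM (log2 fold change 0.82, SE 0.16, edgeR adjusted p = 0.0091). The groups of both called genes did not overlap. Phyh, for branched fatty acids (0.59), Crot, which exports the shortened chains (0.96), Ech1 (0.73) and the thiolases Acaa1a (0.77) and Acaa1b (0.86) were called as well. Acaa1a and Acaa1b are near-identical genes that may lose shared reads. Acot8 had 0.37 and was not called.

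Ketone bodies are made from the acetyl-CoA of this pathway, and 3 of 7 listed genes were called higher. Acat1 rose by 0.80 (SE 0.17, edgeR adjusted p = 0.012) and Bdh1, which makes 3-hydroxybutyrate, by 0.80 (SE 0.15, edgeR adjusted p = 0.0086), both on the log2 scale. Acss3 (0.45) did not pass. Of the further PPAR alpha targets, 4 of 19 tested were called higher and 0 lower. Vnn1, a pantetheinase, had 117, 84.9, 165 and 155 CPM against 54.6, 55.6, 42.2 and 46.7 CPM (log2 fold change 1.39, SE 0.33, edgeR adjusted p = 0.022), and Creb3l3, a liver transcription factor of fasting, 0.63, Hsdl2 0.50 and Cyp4a32 1.19. The common readouts Cyp4a14 (1.07), Angptl4 (1.01), Fgf21 (1.06) and Pdk4 (0.42) did not pass, and their groups overlapped. Cyp4a14 read 635, 279, 1102 and 1003 CPM on the HFD, with F6.4 lowest, and 443, 379, 282 and 332 CPM on the LFD. The 4 calls of that list fell to 0 without F8.1, without F8.2 or without F9.1 and were 8 without F6.4. The mitochondrial list kept 7 to 17 calls and the peroxisomal list 5 to 13 with 1 library left out. Of the 22 oxidation, ketone body and PPAR alpha calls named, 12 held with any 1 library left out, and at the fewest 13 held (without F8.1 or F8.2).

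**Figure D2:**
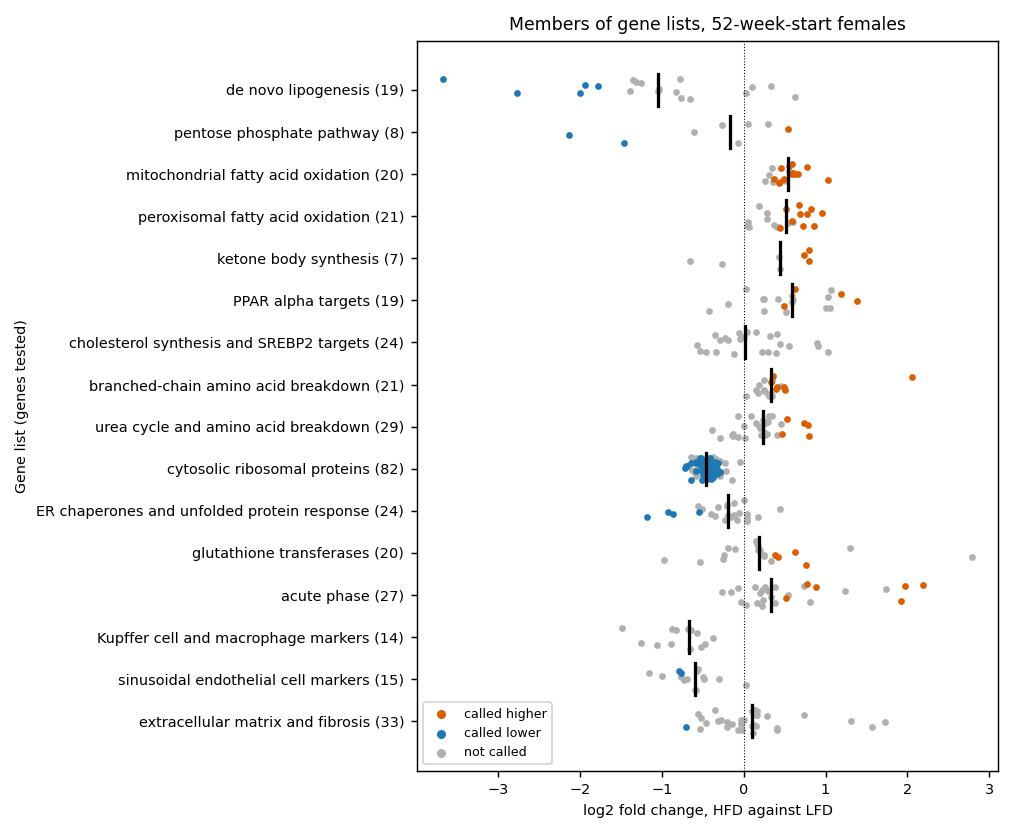
Log2 fold change (HFD against LFD) of each member of 16 gene lists in 52-week-start females, 1 point per gene, filled where edgeR called it (orange, higher, and blue, lower) and grey where not. A black bar marks each list's median, and the list medians run from -1.04 in de novo lipogenesis to 0.59 in PPAR alpha targets.

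Some genes that break down branched-chain amino acids rose. Of 21 listed genes 7 were called higher and 0 lower (background 4.66% higher), with a median log2 fold change of 0.33. The count ran from 3 to 14 with 1 library left out, the highest without F6.4. Beside Ppm1k, given above, the changes were small and the libraries of a group lay close together. Bckdhb, a subunit of the dehydrogenase that Ppm1k activates, had 82.3, 68.9, 74.3 and 68.9 CPM on the HFD and 55.1, 56.7, 60.8 and 61.8 CPM on the LFD (log2 fold change 0.33, SE 0.077, edgeR adjusted p = 0.019). Bckdha, its partner subunit, had 0.34 (SE 0.10, edgeR adjusted p = 0.055), and Bckdk, the kinase that opposes Ppm1k, stayed at 10.1, 9.42, 10.6 and 13.3 CPM against 11.2, 10.7, 10.3 and 10.3 CPM (0.027, edgeR adjusted p = 0.91). Mccc2, of leucine breakdown, had 79.5, 64.6, 66.7 and 74.7 CPM against 47.3, 51.5, 54 and 50.6 CPM (log2 fold change 0.49, SE 0.098, edgeR adjusted p = 0.01). Hibch, of valine breakdown (0.41), and Pcca (0.39) and Mmut (0.36), which carry propionyl-CoA towards the citric acid cycle, were called too. Aldh6a1, of valine breakdown, stood at 598, 513, 608 and 663 CPM against 417, 446, 442 and 368 CPM (log2 fold change 0.51, SE 0.13, edgeR adjusted p = 0.028). In 14 of the 21 genes, among them the 7 called, every HFD liver lay above every LFD liver, against 9.64% of all genes. Of all 1244 called genes 1131 had groups that did not overlap, so this is usual for a called gene.

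Other amino acid pathways held some of the smallest p-values of the whole comparison. The following genes were chosen after their values were seen. Hykk, hydroxylysine kinase, had 196, 193, 228 and 216 CPM on the HFD and 95.7, 86, 76 and 101 CPM on the LFD (log2 fold change 1.22, SE 0.11, edgeR adjusted p = 6.0e-05). Aadat, of lysine and tryptophan breakdown, had 111, 86, 103 and 101 CPM against 55.8, 56, 59.2 and 59 CPM (log2 fold change 0.80, SE 0.083, edgeR adjusted p = 2.7e-04). Kmo, of the kynurenine pathway, had a log2 fold change of 0.62 and Amt, of glycine cleavage, one of 0.72. By the fixed list of the urea cycle and amino acid breakdown, 5 of 29 genes tested were called higher and 0 lower. Otc, ornithine transcarbamylase, had 661, 488, 553 and 560.3 CPM against 357, 386, 417 and 411 CPM (log2 fold change 0.53, SE 0.10, edgeR adjusted p = 0.0093), and Gpt, alanine transaminase (0.47), Bhmt, of methionine remethylation (0.79), Tdo2, of tryptophan breakdown (0.79), and Oat, ornithine aminotransferase (0.73), were called. Cps1, the entry enzyme of the urea cycle (-0.15), Ass1 (0.15), Gls2 (0.25) and Tat (-0.38) did not pass. With 1 library left out in turn, 9 of the 16 amino acid calls named held in all fits and at the fewest 9 (without F8.1 or F7.2).

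Several lipid droplet genes were higher on the HFD. Of that list, 5 of 17 tested genes were called higher and 1 lower (background 4.66% and 3.25%), and 1 to 6 and 0 to 1 with 1 library left out. Fitm1, which helps droplets bud, had 14.8, 6.31, 14.2 and 10.3 CPM on the HFD and 3.94, 4.97, 5.44 and 4.02 CPM on the LFD (log2 fold change 1.31, SE 0.33, edgeR adjusted p = 0.026). Clstn3, whose locus also encodes a droplet protein of fat cells, had 9.36, 4.92, 13.1 and 8.4 CPM against 2.41, 2.51, 4.78 and 5.06 CPM (log2 fold change 1.28, SE 0.33, edgeR adjusted p = 0.028). F6.4 was the lowest HFD liver for both, and for Clstn3 it lay within the LFD range. Cidec, a droplet fusion protein, had 3.92, 0.895, 5.42 and 2.29 CPM against 1.07, 0.892, 0.330 and 0.536 CPM and did not pass (log2 fold change 2.15, SE 0.79, edgeR adjusted p = 0.1), with F6.4 again within the LFD range. Cideb, of the same family, rose slightly (0.40, SE 0.086, edgeR adjusted p = 0.013), as did the seipin gene Bscl2 (0.31) and the lipase gene Lipe (0.78), while Abhd5, the activator of the main droplet lipase, fell by 0.48 on the log2 scale with groups that overlapped, a call lost without F6.4 (edgeR adjusted p = 0.062), with RLE scaling and in the fit of only these 8 libraries. Cidea was not among the genes tested, and Fitm2 (0.44) was not called.

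For triglyceride and phospholipid synthesis 3 of 28 genes were called higher and 0 lower (background 4.66% higher). With 1 library left out 1 to 4 were higher, and without F6.4 2 were lower. Chpt1, choline phosphotransferase, had 125, 97.4, 144 and 115 CPM on the HFD and 66.2, 69.1, 70.5 and 64.5 CPM on the LFD (log2 fold change 0.83, SE 0.14, edgeR adjusted p = 0.0038). The acyltransferase genes Agpat3 (0.43, edgeR adjusted p = 0.02) and Lpgat1 (0.51, edgeR adjusted p = 0.024) rose less. Gpam, the first acyltransferase of the pathway (-0.80), Dgat2, of its last step (-0.28), Mogat1 (1.18) and Pctp (0.23) did not pass. Among the lipoprotein genes Ces3a, a carboxylesterase, had 489, 354, 372 and 566 CPM against 102, 197, 89.1 and 160.3 CPM (log2 fold change 1.7, SE 0.30, edgeR adjusted p = 0.0057), and its family of near-identical genes may lose shared reads. Angptl8, a feeding-induced inhibitor of lipoprotein lipase, had 18.5, 10.02, 19.3 and 27.4 CPM against 43.2, 34.2, 130.2 and 64.2 CPM (log2 fold change -1.85, SE 0.51, edgeR adjusted p = 0.038). No HFD liver reached the LFD range in either. Lcat, which esterifies plasma cholesterol, rose (0.33), whereas Apob (0.33), Mttp (-0.22), Lpl (-0.30) and Vldlr (-0.16) did not pass.

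Fatty acid-binding proteins went opposite ways. Fabp5 had 15.9, 40.6, 15.6 and 9.42 CPM on the HFD and 119.9, 192, 216 and 265 CPM on the LFD (log2 fold change -3.28, SE 0.90, edgeR adjusted p = 0.037). Fabp2, the intestinal form, had 143, 85.5, 146 and 101 CPM against 52.8, 50.4, 45.7 and 53.4 CPM (log2 fold change 1.23, SE 0.22, edgeR adjusted p = 0.0067). Fabp1, the liver form (0.25), Fabp4 (0.068) and the fatty acid transporter Cd36 (0.51, edgeR adjusted p = 0.062) did not pass. Sphingolipid genes were called in both directions, 3 higher and 5 lower of 31. Both subunits of serine palmitoyltransferase, which starts ceramide synthesis, were lower: Sptlc2 at 26, 29.9, 27 and 22.9 CPM against 40.5, 34.2, 39.9 and 34.1 CPM (log2 fold change -0.49, SE 0.094, edgeR adjusted p = 0.0084) and Sptlc1 at 23.1, 23.6, 22.3 and 22.5 CPM against 27.5, 27.6, 26.8 and 26.2 CPM (-0.24, SE 0.067, edgeR adjusted p = 0.038). Acer3, a ceramidase, fell by 0.47 and Ugcg, which makes glucosylceramide, by 0.56, while Sphk2, a sphingosine kinase, rose by 0.55, all on the log2 scale. Cers2, the main ceramide synthase of the liver, was not called (-0.012, SE 0.094, edgeR adjusted p = 0.95) and neither was Degs1 (-0.050).

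Cholesterol synthesis showed no call in either direction over 24 genes (median 0.021). At an unadjusted p under 0.05 its count was 4, DESeq2 and the likelihood ratio test each called 2 higher, and the fit of only these 8 libraries 5. Hmgcs1, of the first committed steps and with the sterol response element printed above, had 927, 711, 746 and 635 CPM on the HFD and 319.8, 338, 446 and 504 CPM on the LFD (log2 fold change 0.91, SE 0.40, edgeR adjusted p = 0.17), while Sqle, a later enzyme of the pathway, had -0.35. Of the bile acid list Abcb4, the phospholipid exporter of the bile canaliculus, had 350.0, 298, 367 and 400.1 CPM against 228, 239.9, 173 and 199 CPM (log2 fold change 0.75, SE 0.16, edgeR adjusted p = 0.014). Cyp2c70, the muricholic acid enzyme of mice, fell (672, 526, 465 and 556 against 743, 742, 1069 and 842 CPM, log2 fold change -0.62, SE 0.15, edgeR adjusted p = 0.025). Cyp7a1, the rate-limiting enzyme of bile acid synthesis, had a log2 fold change of -0.43 (edgeR adjusted p = 0.61), and Cyp8b1 (0.80), Cyp7b1 (0.93) and Cyp27a1 (0.13) did not pass. Of the 21 lipid calls named since Fitm1, 8 held in all fits with 1 library left out, and 8 held at the fewest (without F8.1 or F8.2).

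Many genes of cytosolic ribosomal proteins were lower on the HFD. Of 82 genes, 49 were called lower and 0 higher (background 3.25% lower), and all 82 had a log2 fold change below 0 (against 52.6% of all genes). In 67 every HFD liver lay below every LFD liver, against 7.52% of all genes. Each change was small, with a median of -0.46 and a lowest value of -0.72. Summed over the 82 genes, the level was 9722, 8738, 8960 and 6839 CPM on the HFD and 10570, 11104, 12260 and 12012 CPM on the LFD. The gap between F6.1 and F7.2 was narrow and F8.2 was the lowest library. Rpl10a had 50.9, 46.7, 51.8 and 36.6 CPM on the HFD and 64.4, 68.8, 76.6 and 80.3 CPM on the LFD (log2 fold change -0.64, SE 0.12, edgeR adjusted p = 0.0074). Rps12 (-0.64), Rps7 (-0.45) and Rps6 (-0.47) were among the calls. The count of lower genes was 48 without F6.4 and ran from 11 to 48 with 1 library left out, and it was 25 in the fit of only these 8 libraries and 46 with RLE scaling. Many ribosomal protein genes have processed pseudogenes that may take shared reads. Subunits of the respiratory chain gave 1 higher and 0 lower of 74, with a median of -0.028. Of these genes 30 lay above and 44 below 0, from -0.60 to 0.30.

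Chaperones of the endoplasmic reticulum gave 4 lower and 0 higher calls of 24 (background 3.25% lower). Creld2 had 16.9, 14, 11.9 and 11.7 CPM on the HFD and 49.9, 24.2, 29.4 and 20.1 CPM on the LFD (log2 fold change -1.18, SE 0.32, edgeR adjusted p = 0.037), and the chaperone genes Manf (-0.92) and Hyou1 (-0.87) and the stress sensor gene Ern1 (-0.55) were called as well. In Creld2, Manf and Hyou1 the highest liver was F7.2. Hspa5, the main chaperone of this compartment, had 869, 619, 595 and 598 CPM against 1316, 922, 935 and 777 CPM and did not pass (-0.56, SE 0.22, edgeR adjusted p = 0.12), and Xbp1 (0.0017), Hsp90b1 (-0.12) and Dnajb9 (-0.40) did not either. With 1 library left out the count of lower genes ran from 0 to 4. The ATF4 list had 0 calls of 23 (8 at an unadjusted p under 0.05, and 4 higher and 1 lower by DESeq2), with Atf4 at -0.51, Trib3 at 0.88 and Asns at 0.37. Of the 8 ribosomal and chaperone calls named, 4 held in all fits without 1 library, and 4 at the fewest (without F8.1, F8.2, F7.2, F7.4 or F9.1).

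**Figure D3:**
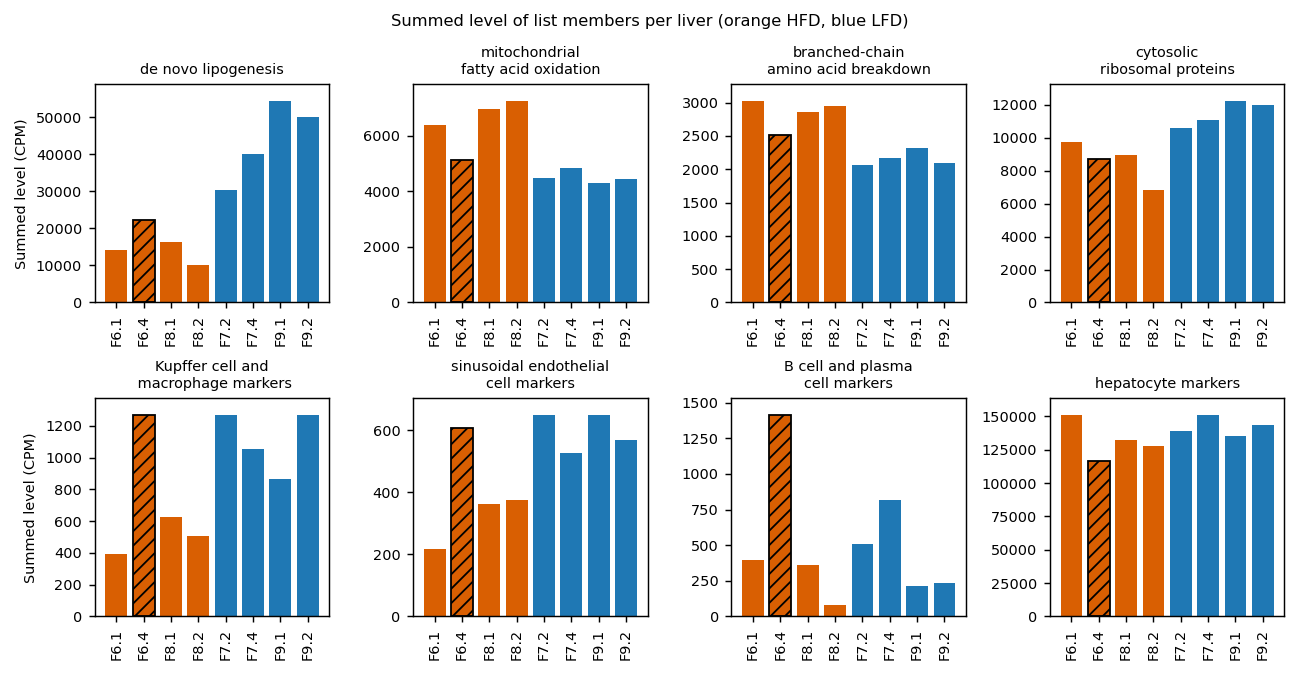
Summed level in CPM (each axis from 0) of the members of 8 gene lists in each liver, 1 bar per library in the order F6.1, F6.4, F8.1, F8.2 (orange, HFD) and F7.2, F7.4, F9.1, F9.2 (blue, LFD). The bars of lipogenesis, fatty acid oxidation, branched-chain amino acid breakdown and ribosomal proteins separate the diets, whereas in the Kupffer cell, sinusoidal endothelial and B cell panels F6.4 (hatched) stands at or above LFD levels.

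Enzymes that handle oxidants and foreign compounds rose in part. Of the antioxidant list 5 of 26 genes were called higher and 0 lower (background 4.66% higher), and 1 to 5 higher with 1 library left out. Gpx1, glutathione peroxidase, had 1595, 973, 1169 and 1276 CPM on the HFD and 792, 709, 742 and 785 CPM on the LFD (log2 fold change 0.73, SE 0.14, edgeR adjusted p = 0.0086). Gclm, a subunit of the enzyme that limits glutathione synthesis and the holder of the antioxidant response element printed above, had 208, 152, 203 and 216 CPM against 142, 130.4, 160.1 and 147 CPM (log2 fold change 0.43, SE 0.12, edgeR adjusted p = 0.046), with F6.4 within the LFD range. Those letters were found in 7 of 21 promoters of this list and in 16.7% of all. Sod2 (0.37), Prdx6 (0.36) and Ephx1 (0.89) were called, while Nqo1 (0.41), Gclc (0.41), Hmox1 (-0.65) and Txnrd1 (0.13), the usual NRF2 readouts, did not pass. Of the glutathione transferases 4 of 20 tested were higher and 0 lower. Gstk1, of mitochondria and peroxisomes, had 115, 95.2, 111 and 95.5 CPM against 58.3, 58.9, 65.9 and 62.9 CPM (log2 fold change 0.76, SE 0.10, edgeR adjusted p = 0.0014), and Mgst1 (0.63), Gstz1 (0.42) and Gsto1 (0.38) followed. Gsta1 (2.79, SE 1.3), Gsta2 (1.29, SE 0.70) and Gstm1 (-0.25) did not pass. Gsta1 read 6.37, 0.348, 1.45 and 0.266 CPM on the HFD, so its fold change rests on F6.1.

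Some subfamilies of the cytochromes P450, such as Cyp2c, hold near-identical genes that may lose shared reads, so the values of those genes are uncertain. Of the xenobiotic forms 3 of 23 were called higher and 0 lower (background 4.66% higher), and 6 were higher without F6.4. Cyp2c50 had 851, 495, 651 and 850.3 CPM on the HFD and 201, 253, 206 and 286 CPM on the LFD (log2 fold change 1.59, SE 0.38, edgeR adjusted p = 0.022), Cyp2f2, a periportal form, 647, 351, 395 and 356 CPM against 138, 248, 206 and 278 CPM (1.01, SE 0.21, edgeR adjusted p = 0.011), and Cyp2j5 had a log2 fold change of 0.72. Cyp1a2 (0.017), Cyp2b10 (0.36), Cyp3a11 (0.45) and Cyp2e1 (0.74) did not pass. In Cyp3a11, the main steroid and drug hydroxylase, F6.4 was far below the other HFD livers (1996, 401, 1558 and 1102 CPM, against 1088, 809.5, 798 and 996 CPM on the LFD).

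Liver genes known for a sex bias were called in both directions in each list. The median log2 fold change was -0.040 in the female-biased list (15 genes above and 19 below 0). In the male-biased list it was 0.70 (16 above and 6 below 0). Of the female-biased list 2 were called higher and 2 lower of 34 tested. Cyp2b13 had 449, 153, 463 and 349 CPM on the HFD and 79.9, 89.9, 47.9 and 81.9 CPM on the LFD (log2 fold change 2.24, SE 0.64, edgeR adjusted p = 0.044), and Cyp2a4 533, 666, 657 and 645 CPM against 1074, 1667, 1480.1 and 1286 CPM (log2 fold change -1.14, SE 0.18, edgeR adjusted p = 0.0037). Adam11, lower, and Cyp2c67, higher (0.70), were the other calls, and Cyp2b9 (0.51) and Cyp3a41a (0.061, SE 1.01) did not pass. Of the male-biased list 4 were higher and 1 lower of 22 tested, and 8 further members, such as Cyp4a12a and Mup1, were not among the genes tested. Hsd3b2, a steroid dehydrogenase, had 31.2, 17.2, 29.8 and 28.2 CPM against 11.4, 11.4, 11.6 and 13.1 CPM (log2 fold change 1.17, SE 0.17, edgeR adjusted p = 0.0024). C8a, a complement component, had 108, 226, 78.4 and 98.1 CPM against 22.9, 42.2, 15.6 and 74.8 CPM (log2 fold change 1.72, SE 0.42, edgeR adjusted p = 0.024), with F6.4 the highest of all and the 2 closest livers, F8.1 and F9.2, almost level. Ugt2b1, which glucuronidates steroids, rose (0.68), and Ihh, the hedgehog ligand, fell (-2.17, SE 0.38, edgeR adjusted p = 0.0057) at 0.361, 0.149, 0.194 and 0.217 CPM against 1.18, 0.919, 0.813 and 1.25 CPM. Slco1a1, the male-biased transporter, stayed between 0 and 0.169 CPM. Summed over its tested members, the male-biased list stood at 4197, 3235, 3404 and 3285 CPM on the HFD and 1815, 2036, 1941 and 2147 CPM on the LFD. Of the 20 calls named for detoxification and sex-biased genes, 10 held whichever library was left out and 11 at the fewest (without F7.2 or F7.4).

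Lepr and Slc2a4, of leptin and insulin signals, were lower on the HFD. Of 20 genes of insulin, leptin and glucose uptake, 2 were called lower and 0 higher (background 3.25% lower), and without F6.4 3 lower and 3 higher. Lepr is given above, and Slc2a4, the insulin-responsive glucose transporter GLUT4, had 1.93, 2.83, 2.03 and 1.57 CPM on the HFD and 7.8, 15.4, 21.5 and 10.2 CPM on the LFD (log2 fold change -2.71, SE 0.64, edgeR adjusted p = 0.021). The insulin receptor gene Insr (0.13) and Irs2 (0.73) did not pass. Growth hormone and IGF genes had 0 calls of 14 (4 at an unadjusted p under 0.05, and 1 higher and 0 lower by DESeq2), with Igf1 at 0.14 and Ghr at 0.22.

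Genes of the BMP and iron axis, through which the liver sets plasma iron, were lower in 3 and higher in 1 of 17 (background 3.25% and 4.66%), and lower in 0 to 4 with 1 library left out. Id1 and Smad7, direct targets of BMP signals, had 15.2, 9.15, 9.64 and 14.7 CPM against 31, 15.8, 33.6 and 21.2 CPM (log2 fold change -1.06, SE 0.27, edgeR adjusted p = 0.028) and 13.4, 13.6, 9.37 and 16.2 CPM against 38.8, 21, 28.8 and 21.4 CPM (-1.06, SE 0.26, edgeR adjusted p = 0.024). Hamp2 had 131, 140.1, 149 and 66 CPM against 414, 365, 614 and 431 CPM (log2 fold change -1.91, SE 0.45, edgeR adjusted p = 0.021), and Hamp, which encodes the iron hormone hepcidin, 612, 491, 342 and 324 CPM against 886, 618, 769 and 718 CPM (-0.76, SE 0.25, edgeR adjusted p = 0.071), short of the threshold. In all 4 genes each HFD liver lay below each LFD liver. Hamp and Hamp2 are near-identical genes. Bmp2, a ligand made by sinusoidal endothelial cells, was also lower and is given with those cells. Steap3, a ferrireductase, rose (0.66), and Tfrc (-0.61) and the iron exporter gene Slc40a1 (-0.39) did not pass.

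Acute phase genes, which hepatocytes induce in inflammation, were higher in 6 and lower in 0 of 27 (background 4.66% higher), and higher in 1 to 7 with 1 library left out. Orm2 had 35.1, 65.9, 19 and 14.4 CPM on the HFD and 7.05, 7.7, 6.93 and 12.5 CPM on the LFD (log2 fold change 1.97, SE 0.42, edgeR adjusted p = 0.012). Lcn2, lipocalin 2, had 68.4, 112, 32.5 and 20.9 CPM against 13.6, 15, 7.24 and 15.3 CPM (log2 fold change 2.19, SE 0.61, edgeR adjusted p = 0.039, and 1.66 without F6.4, edgeR adjusted p = 0.075). Saa1 had 117, 78.4, 69.1 and 28.5 CPM against 22.9, 16.2, 13.5 and 24.7 CPM (log2 fold change 1.92, SE 0.47, edgeR adjusted p = 0.024). F8.2 was the lowest HFD liver in all 3 and lay close to the LFD livers, and F6.4 was the highest for Orm2 and Lcn2. Hp, haptoglobin, rose with closer replicates (3152, 2621, 2815 and 2620.5 against 1826, 1603, 1346 and 1797 CPM, log2 fold change 0.77, SE 0.17, edgeR adjusted p = 0.017), with Saa4 (0.89) and Steap4 (0.52), and Saa2 did not pass (1.73, edgeR adjusted p = 0.053). The Saa and Orm genes are near-identical families. Leaving out 1 library kept 2 of the 13 hormone, iron and acute phase calls named in all 8 fits and 2 at the fewest (without F9.1).

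Markers of the cells that line the sinusoids depended on 1 library. Kupffer cells are the resident macrophages of the liver, and with all libraries 0 of 14 macrophage markers were called (median log2 fold change -0.67, and 9 at an unadjusted p under 0.05). Their summed level was 392, 1268, 628 and 504 CPM on the HFD and 1272, 1055, 864 and 1270 CPM on the LFD, so that F6.4 stood with the LFD livers and the other HFD livers below all of them. Without F6.4, 12 of the 14 were called lower and 0 higher (background 7.19% lower), with a median of -1.12. Voom with quality weights, which gives an outlying library less weight, called 12 lower with all libraries. DESeq2, RLE scaling and the fit of only these 8 libraries called 0. F6.4 was singled out by its values in these same data. Leaving out or down-weighting the highest HFD liver deepens a fall by itself, so these 12 calls are no independent evidence of one. Clec4f, the lectin of Kupffer cells, had 58.7, 174, 95.6 and 92.4 CPM on the HFD and 127, 148, 149 and 181 CPM on the LFD (log2 fold change -0.52, and -0.88 without F6.4). Adgre1, which encodes F4/80, had 10.1, 65.8, 24.7 and 15.7 CPM against 95.3, 53.5, 40.7 and 51.8 CPM (-1.05, and -1.84 without F6.4). Vsig4 (-0.66, and -1.03 without F6.4) and Timd4 (-1.26, and -2.24) also had F6.4 within the LFD range. In bulk tissue fewer cells of a type and less RNA per cell cannot be told apart.

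Sinusoidal endothelial markers were lower in 2 and higher in 0 of 15 with all libraries and lower in 11 without F6.4 (medians -0.60 and -0.92). The shares of all genes called lower were 3.25% and 7.19%. Stab1, a scavenger receptor, had 26.3, 66.7, 37.3 and 41.4 CPM on the HFD and 77.6, 72.4, 78.3 and 68.5 CPM on the LFD (log2 fold change -0.79, SE 0.21, edgeR adjusted p = 0.033), and Bmp2 7.12, 20.6, 11.8 and 14.6 CPM against 21.7, 18.7, 27.7 and 24 CPM (-0.77, SE 0.22, edgeR adjusted p = 0.047). F6.4 was the highest HFD liver in both, and in Bmp2 within the LFD range. Stab2 (-0.48), Clec4g (-0.50), Lyve1 (-0.99) and Oit3 (-0.57) did not pass with all libraries. The summed level of the list was 218, 608, 364 and 375 CPM on the HFD and 648, 528, 651 and 567 CPM on the LFD. F6.4 was again the highest HFD liver, so the 11 calls without it have the same limit. With all libraries voom called 11 lower, DESeq2 4, RLE scaling 1 and the fit of only these 8 libraries 0. F6.1 was the lowest library for both cell types. The part of the cell markers in other results was not tested.

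Markers of other cell types gave few calls. Hepatic stellate cell markers, of the cells that make scar tissue, gave 0 calls of 14 with all libraries (3 at an unadjusted p under 0.05 and 0 lower by DESeq2) and 1 lower without F6.4 (background 7.19% lower), with Pdgfrb at -0.13 and Lrat at -0.14. B and plasma cell markers gave 0 calls of 19 (0 at an unadjusted p under 0.05, and 0 higher and 0 lower by DESeq2), and their sum ran from 79 to 1417 CPM on the HFD, the highest being F6.4, and from 214 to 820 CPM on the LFD. T and NK cell markers gave 1 higher and 0 lower of 19 tested, with a median of -0.31, and of -0.79 without F6.4. The 4 neutrophil markers tested gave 0 calls (1 at an unadjusted p under 0.05 and 0 by DESeq2) and 2 lower calls without F6.4, with medians of -0.29 and -1.28. The called T cell gene was Themis, of T cell signaling, with 0.826, 1.04, 2.13 and 1.91 CPM against 0.456, 0.838, 0.279 and 0.387 CPM (log2 fold change 1.59, SE 0.47, edgeR adjusted p = 0.048), while Cd3e had -0.31, Cd3d -0.21, Cd8a 0.54 and Cd4 -0.00029. Summed over 14 markers of lipid-associated and monocyte-derived macrophages the level was 225, 389.6, 208 and 171 CPM on the HFD and 442, 442, 415 and 599 CPM on the LFD. These sums did not overlap, but Fabp5, with the levels given above, was a large part of the LFD sums. Without Fabp5 the sums of the groups overlapped. The median log2 fold change of the 14 markers was 0.022. Of these markers 2 were called lower and 0 higher, and 4 lower without F6.4. Cd9 fell (-0.81, SE 0.23, edgeR adjusted p = 0.046) together with Fabp5, which hepatocytes express as well. Trem2 stood at 1.14, 1.04, 0.852 and 0.918 CPM against 0.510, 0.405, 0.508 and 0.833 CPM (0.81, edgeR adjusted p = 0.36), Gpnmb at 0.013 and Mmp12 at 8.38, 1.19, 6.74 and 2.75 CPM against 1.21, 2.27, 1.42 and 1.55 CPM (1.56, edgeR adjusted p = 0.3), and none of these passed. The hepatocyte list gave 0 calls of 12 (0 at an unadjusted p under 0.05, and 0 and 0 by DESeq2).

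Of the extracellular matrix and fibrosis list 1 of 33 genes was called lower and 0 higher. This was Tgfb1, the main fibrogenic cytokine, with 8.1, 17.6, 10.3 and 8.91 CPM on the HFD and 19.4, 18.9, 15.9 and 19 CPM on the LFD (log2 fold change -0.70, SE 0.21, edgeR adjusted p = 0.048), and F6.4 within the LFD range. The collagen genes Col1a1 (24.2, 22.8, 15.6 and 14.8 against 18.9, 15.5, 9.88 and 14.3 CPM, 0.40, SE 0.57) and Col3a1 (51.6, 57.8, 38.2 and 39.5 against 49.2, 45.5, 36.8 and 43.4 CPM, 0.096, SE 0.46), Mmp2 (0.28), Timp1 (1.31), Edn1 (0.74) and Xdh (0.19) did not pass. Il1b, the inflammatory cytokine of myeloid cells, fell, with 1.44, 5.34, 2.81 and 1.91 CPM against 5.47, 12.2, 6.27 and 8.81 CPM (log2 fold change -1.51, SE 0.41, edgeR adjusted p = 0.035), and Tlr12, a toll-like receptor, rose (9.11, 10.3, 15.3 and 13.7 against 4.37, 3.32, 5.16 and 6.13 CPM, 1.35, SE 0.28, edgeR adjusted p = 0.011). They were the calls (6 lower and 1 higher without F6.4) of a list of 27 chemokine, cytokine and toll-like receptor genes, in which Ccl2 (-0.34), Tnf (0.027) and Tlr4 (-0.76, and -1.19 with edgeR adjusted p = 0.0067 without F6.4) did not pass. Of 32 interferon-stimulated genes 1 fell (4 without F6.4), Ifi27l2a (-0.87, SE 0.25, edgeR adjusted p = 0.043), and Isg15 (0.12), Irf7 (-0.58) and Ifit1 (0.25) did not pass. Cell cycle genes had 0 calls of 30 (2 at an unadjusted p under 0.05, and 0 higher and 1 lower by DESeq2), with Mki67 at 6.35, 16.1, 7.22 and 4.23 CPM against 15.2, 12.4, 15.7 and 16.6 CPM. Of the 9 calls named for these cells and pathways, 1 held in all fits with 1 library left out, and 1 at the fewest (without F8.1, F8.2 or F9.2).

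**Figure D4:**
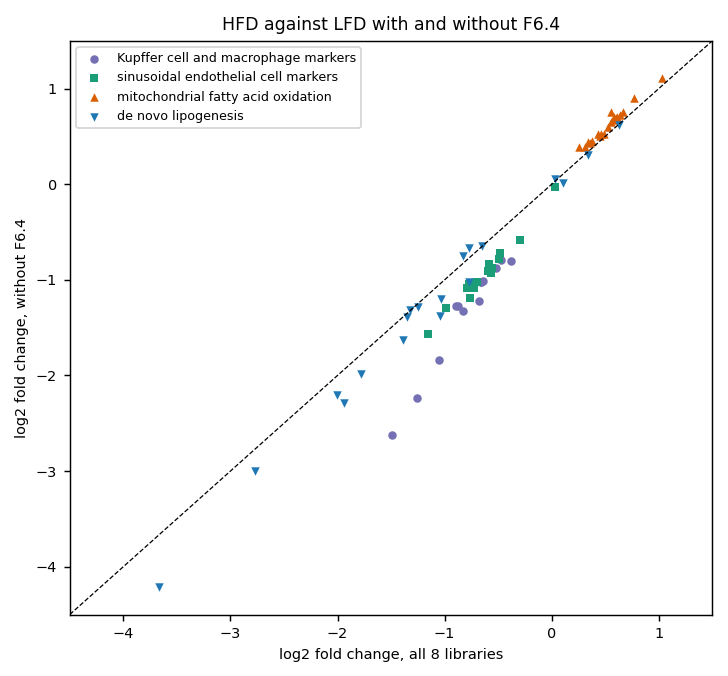
Log2 fold change (HFD against LFD) of each member of 4 gene lists with all 8 libraries (horizontal axis) and without F6.4 (vertical axis), 1 point per gene, with a dashed line where both are equal. Kupffer cell and sinusoidal endothelial markers lie below the line (medians -0.67 and -1.12, and -0.60 and -0.92), while genes of mitochondrial fatty acid oxidation lie slightly above it.

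The same diets in females that were 7 weeks old at the start gave 183 higher and 141 lower calls (1.16% and 0.896% of 15733). The LFD livers of that age lay far apart on dimension 1 of the plot of leading log2 fold changes. F3.4 and F5.2 lay at 2.045 and 1.83, and F3.3 and F5.1 at 0.22 and 0.020. That spread enters these calls, the interaction and the fold changes at the 7-week start, and its effect on them was not tested. It also enters the SEs and p-values at the 52-week start, which come from the same fit. The fit of only the 8 libraries, which leaves it out, called 940 genes higher and 458 lower at that start. The difference between the ages, tested as an interaction in the same fit, was called for 0 genes by edgeR's quasi-likelihood test (1059, or 6.73%, at an unadjusted p under 0.05), while DESeq2 called 21 and the likelihood ratio test 10. The smallest p was that of Mxd1, a repressor of the Myc network, with log2 fold changes of 0.54 at the 52-week and -0.39 at the 7-week start (edgeR adjusted p of the difference = 0.56). Only some of the genes named above are set side by side here, as examples. Their log2 fold changes at the 52-week and 7-week starts were 2.06 and 1.55 for Ppm1k, -2.0 and -1.72 for Fasn, and 1.03 and 0.43 for Cpt1a. They were -2.96 and -2.16 for Lepr, and -1.14 and -0.026 for Cyp2a4. Slc13a5, among the largest rises at the 52-week start, had opposite signs, with 2.31 and -0.87. That difference was not called either (edgeR adjusted p = 0.56). The median over the ribosomal proteins was -0.46 and -0.21, and 0 of them were called at the 7-week start.

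Compared with males of the same start age, the response to the diet differed by an interaction test for 604 of 15383 genes (3.93%), 281 of them more positive in females and 323 more negative. Among the 6 smallest p-values was Ppm1k, with 2.06 in females and 0.41 in males (difference 1.63, SE 0.23, edgeR adjusted p = 6.3e-04), and without 1 female library the 604 became 64 (without F7.2) to 1750 (without F6.4).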

How the data were processed

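PolyA RNA from the livers of 32 mice was sequenced by the authors as paired reads from KAPA mRNA HyperPrep libraries. According to the study's methods and the submitters' processing notes, the authors used STAR with the mm10 genome for alignment, dropped reads with more than 1 mapping position and counted the rest with featureCounts (versions, annotation and strand setting: not given in the sources used here). Deposited tables, 1 per sex, hold for each library the raw counts, log2 RPKM and log2 CPM of every gene, beside fold changes, p-values and false discovery rates of the authors' own comparisons. Only the deposited counts were used, and no column of the comparisons. Gene coordinates are those of the deposited table.

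Samples were grouped by the labels. Of 15736 genes in the table of females, 15733 had more than 10 counts in at least 2 of 16 libraries and were tested in R 4.3.3 with edgeR 4.0.16 (TMM scaling, quasi-likelihood F test, 1 fit of 4 groups). The age by diet interaction came from the same fit, and the sex by diet interaction from a fit of all 32 libraries over 15383 genes. A call is a Benjamini-Hochberg adjusted p under 0.05 over all genes of a fit. The scripts were tested on simulated counts. Levels are TMM-scaled CPM, and SEs are those of the log2 fold change, taken from the F statistic.

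Genes named in the text are, by rule, the 12 largest and 12 smallest log2 fold changes among called genes of at least 1 CPM whose groups do not overlap (immunoglobulin segments and genes that lack a standard symbol left out), the first 4 members and up to 6 called members with the smallest p of each list described, the genes the paper names and up to 6 called genes with the smallest p of each interaction. The age by diet interaction had 0 called genes, and Mxd1 is named as its smallest p. Exceptions are marked. The mice, the gene lists and the rule were chosen with earlier results of these data known, so no list is independent evidence. Lists were not tested as sets. The alternatives were DESeq2 1.42.0, edgeR's likelihood ratio test, limma 3.58.1 (voom, quality weights), RLE scaling, a robust prior, no filter, a 1 CPM filter, fitting only the 8 libraries, and each library left out in turn. Where that leaves 3 mice in a diet group, the spread is shared with the other groups of the fit. P-values and SEs rest on a spread shared by all groups of a fit, in the main fit also the 7-week-start females. They do not measure the spread of the 8 mice alone. Among the genes named, fitting only the 8 libraries added 15 calls and lost 9. Results of some genes are not reported here, although counts and sums over lists include them.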

Additional observations from a re-analysis of the deposited data

Results flagged for a closer look

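A liver was marked where, among the 4 of its diet, its gap to the nearest other liver divided by the group's whole range was above Dixon's 95% critical value. This was so in 29 of 516 groups of 4 examined (genes named in the text, summed lists and library measures, in each diet), and chance marks about 1 in 20. F6.1 stood apart from the other HFD livers in Cyp2a4 (533 CPM, nearest 645), Cyp2f2 (647 CPM, nearest 395), Hsp90b1 (1169.8 CPM, nearest 931), Hspa5 (869 CPM, nearest 619) and Isg15 (6.94 CPM, nearest 5.58). F6.4 stood apart on the same diet in Acat1 (373 CPM, nearest 569.9), Fgf21 (1.99 CPM, nearest 3.55), G6pdx (12.8 CPM, nearest 5.37), Hsd17b4 (419 CPM, nearest 544), Mmut (225 CPM, nearest 255), Pctp (152 CPM, nearest 193), Ugt2b1 (178 CPM, nearest 198) and Vldlr (25.8 CPM, nearest 38.6). F8.2 was marked in Rps12 (43.8 CPM, nearest 63.5) and Sphk2 (56.7 CPM, nearest 44.5). F7.2 stood apart from the other LFD livers in Acads (88.1 CPM, nearest 91.7), Crtc2 (22.6 CPM, nearest 24.7) and Ifit1 (15.8 CPM, nearest 11.4). F7.4 was marked in Slc34a2 (8.03 CPM, nearest 2.9). F9.1 stood apart in Cers2 (347 CPM, nearest 307), Elovl6 (2054 CPM, nearest 1015), Fasn (6889.5 CPM, nearest 4062), Mmp2 (2.24 CPM, nearest 3.49), Tgfb1 (15.9 CPM, nearest 18.9) and Timp1 (0.0762 CPM, nearest 0.270). F9.2 was marked on the LFD in Hsd3b2 (13.1 CPM, nearest 11.6), Orm2 (12.5 CPM, nearest 7.7) and Rnf145 (40.5 CPM, nearest 49.9). The 10 most abundant genes took 22.8% of the counts of F6.1, against 20.8% in the nearest HFD liver. In all of its genes but Vldlr, F6.4 was the HFD liver nearest to the LFD livers, and in Vldlr it lay below all of them. F9.1 was the highest LFD liver for Fasn and Elovl6.

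The 6 smallest p-values of the sex by diet interaction at the 52-week start are given here, each a call of that test. The log2 fold changes in females and in males were 0.62 and -0.92 for Dpy19l3 (difference 1.52, SE 0.20, edgeR adjusted p = 5.9e-04), 2.06 and 0.41 for Ppm1k (difference 1.63, SE 0.23, edgeR adjusted p = 6.3e-04), 1.17 and -0.54 for Hsd3b2 (difference 1.69, SE 0.26, edgeR adjusted p = 0.0029), 0.87 and -0.56 for Hsd3b3 (difference 1.42, SE 0.22, edgeR adjusted p = 0.0029), 1.22 and 0.21 for Hykk (difference 0.99, SE 0.16, edgeR adjusted p = 0.0032) and -0.87 and 1.57 for Ifi27l2a (difference -2.46, SE 0.41, edgeR adjusted p = 0.0044). Ppm1k and Hykk, of amino acid breakdown, had the larger values in females, and the steroid dehydrogenase genes Hsd3b2 and Hsd3b3, the glycosyltransferase gene Dpy19l3 and the interferon-stimulated gene Ifi27l2a had values of opposite sign. Hsd3b2 and Hsd3b3 are near-identical genes that may lose shared reads.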

How the results depend on the processing

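For the HFD in 52-week-start females, DESeq2 called 1990 genes (1171 higher and 819 lower) and voom with quality weights 4101 (1949 and 2152), against 1244 (733 and 511), and 1235 and 1240 of these 1244 were among their calls. The fit of only the 8 libraries called 1398 (940 higher and 458 lower), a filter of 1 CPM 1316 (830 and 486) and RLE scaling 1235 (777 and 458), and the likelihood ratio test, a robust prior and no filter also stayed within 1.5 times. With 1 library left out the count ran from 467 (without F8.1) to 2148 (without F6.4), that of higher genes from 317 to 1018 and that of lower genes from 150 to 1130. No alternative moved the median log2 fold change of all genes by more than 0.0179. The age by diet interaction, 0 by the quasi-likelihood test (1059 at an unadjusted p under 0.05), was called by DESeq2 for 21 genes and by the likelihood ratio test for 10, and for 0 with RLE or any 1 library left out. The 604 sex by diet calls became 1531 in DESeq2, 1107 in the likelihood ratio test, and 64 (without F7.2) to 1750 (without F6.4) with 1 library left out. The cause of these shifts was not tested.

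Of the 247 genes named in the text, 140 were called, and 64 of these were called in all 8 fits with 1 library left out. Lost calls numbered 8 (without F6.4) to 68 (without F8.1) in these fits, 9 in the fit of 8 libraries, 7 with a robust prior, 4 with RLE, 0 by DESeq2 and voom and 2 by the likelihood ratio test. No called gene changed direction under any alternative. Some genes that were not called changed sign. They were by the likelihood ratio test Slco1a1 (0.012) and Cd4 (0.00023), by DESeq2 Slco1a1 (0.028) and Cd4 (0.011), by voom Gpnmb (-0.21), Asns (-0.74), Col3a1 (-0.084), Xbp1 (-0.057), Fabp4 (-0.29), Cers2 (0.00054), Cyp1a2 (-0.048) and Cyp3a41a (-0.025), with RLE Cd4 (0.011), with the 1 CPM filter Cd4 (0.015), in the fit of 8 libraries Slco1a1 (0.0061), Cd4 (0.020) and Cers2 (0.0050). With 1 library left out, the log2 fold changes that crossed 0 ran from -0.10 to 0.70 for Asns, -0.085 to 0.089 for Bckdk, -0.76 to 0.090 for Cd3d, -0.52 to 0.24 for Cd4, -0.22 to 0.84 for Cd8a, -0.050 to 0.044 for Cers2, -0.022 to 0.18 for Col3a1, -0.14 to 0.21 for Cyp1a2, -0.67 to 0.20 for Cyp7a1, -0.035 to 0.16 for Ehhadh, -0.27 to 0.35 for Fabp4, -0.22 to 0.28 for Gpnmb, -0.0011 to 0.21 for Igf1, -1.85 to 0.15 for Igfbp1, -0.59 to 0.18 for Lpin1, -0.40 to 0.29 for Slco1a1, -0.27 to 0.41 for Tnf, -0.21 to 0.037 for Ttr and -0.066 to 0.074 for Xbp1. No paired analysis was run because the labels give no replicate numbers that pair the groups. Among the 8 libraries, F6 and F8 occur only on the HFD and F7 and F9 only on the LFD. A fit with the digit before the point as a block could therefore not separate it from the diet, and none was run. All tests took the mice of a diet as independent. If mice that share a digit are not independent, the p-values may be too small, and this was not tested.

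With 4 mice per diet, small changes of variable genes could not be called. Whether depth limited the calls was not tested, and genes of about 1 CPM or less (such as Timp1, Ihh, Slco1a1, Trem2 and Themis) rest on few reads. The filter of 1 CPM left out 7 of the 247 named genes. Reads of near-identical genes that map to several places were left out by the authors. RNA levels of whole liver were measured, not protein, flux or fat content, and the diets differ in carbohydrate, sucrose and cholesterol as well as in fat.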

Other observations

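Gene groups outside the comparisons above held few calls. Of 15 tested genes of retinoid metabolism 1 was higher, Aldh1a1, which makes retinoic acid, with 1282, 780.2, 1212 and 994 CPM on the HFD and 467, 491, 426 and 496 CPM on the LFD (log2 fold change 1.18, SE 0.21, edgeR adjusted p = 0.0055). The circadian list gave 1 call of 20, Bhlhe41, a repressor of clock genes, with 1.81, 3.03, 2.21 and 3.67 CPM against 1.23, 1.16, 0.737 and 1.58 CPM (1.19, SE 0.27, edgeR adjusted p = 0.018), and the steroid list 1 of 16, the steroid reductase gene Srd5a2 (0.78, SE 0.20, edgeR adjusted p = 0.028). Of the zonation markers 2 of 17 pericentral genes (Slc13a3, 0.85, and Oat) and 1 of 15 periportal genes (Cyp2f2) were called higher, against 4.66% of all genes.

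Some of the smallest p-values belonged to genes outside every list, and these were chosen after their values were seen. Rnf145, a ubiquitin ligase of the endoplasmic reticulum known to act on sterol synthesis, had 16.2, 20.4, 19 and 16.6 CPM on the HFD and 50.8, 49.9, 50.1 and 40.5 CPM on the LFD (log2 fold change -1.4, SE 0.17, edgeR adjusted p = 7.8e-04). Pgs1, which makes the precursor of cardiolipin, had 6.76, 8.25, 7.2 and 7.73 CPM against 12.9, 12.2, 16 and 13.1 CPM (-0.86, SE 0.10, edgeR adjusted p = 7.8e-04). Cyp4v3, a fatty acid hydroxylase, rose (0.93, SE 0.11, edgeR adjusted p = 0.001), and so did Lamb3, a laminin chain (1.63, SE 0.20, edgeR adjusted p = 0.001).

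Igfbp1, which rises in fasting, and Lpin1, a phosphatidate phosphatase and coactivator also known for fasting, differed with the digit before the point in the library names. Igfbp1 stood at 32, 36, 15.5 and 9.76 CPM in F6.1, F6.4, F8.1 and F8.2 and at 47.3, 196, 8.05 and 7.68 CPM in F7.2, F7.4, F9.1 and F9.2. Lpin1 stood at 371, 422, 194 and 129 CPM and 358, 652, 199.7 and 184 CPM in the same order. In both genes the libraries F6 and F7 lay above the libraries F8 and F9 of either diet. Over all genes the libraries F7.2 and F7.4 (chi-square per gene 27.2) and F9.1 and F9.2 (30.4) were the closest pairs of the LFD, whose other pairs gave 46.6 to 60.9, whereas on the HFD F6.1 and F6.4 gave 87.5, F8.1 and F8.2 43.5, and the other pairs 48.7 to 91.1. The labels do not say what that digit stands for, and both genes were chosen after their values were seen.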
